A study of Mus musculus with 72 samples.

Results

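The polyamines putrescine, spermidine and spermine are small cations that every cell makes from ornithine and methionine, and 10 genes that make, interconvert and regulate them were followed here by name. The genes were Odc1, Amd1, Srm, Sms, Sat1, Paox, Smox, Oaz1, Oaz2 and Azin1, out of 20561 genes in the whole-gene table. Male C57BL/6J mice aged 8 weeks either ate normal chow freely (fed) or had no food for 24 h (fasted), under 12 h of light and 12 h of dark. Their liver and gastrocnemius muscle, the large calf muscle, were sampled at 6 Zeitgeber times (ZT0, 4, 8, 12, 16 and 20, with ZT0 at lights on). The 72 RNA-seq libraries formed 24 groups of 3, so that each tissue had 36 libraries and each feeding state within a tissue had 18. The labels name no other treatment or genotype, and feeding state, tissue and time distinguish the groups. A fed and a fasted mouse of the same ZT differ in their last 24 h of food, and the fasted mice of different ZTs began the fast at different times of day.

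Ornithine decarboxylase, encoded by Odc1, makes putrescine and is the rate-limiting enzyme of the pathway. Spermidine synthase (Srm) and spermine synthase (Sms) then add aminopropyl groups that come from S-adenosylmethionine through S-adenosylmethionine decarboxylase (Amd1). In the reverse direction, Sat1 acetylates spermidine and spermine, the peroxisomal oxidase Paox cleaves the acetylated forms, and spermine oxidase (Smox) turns spermine directly into spermidine. Antizymes (Oaz1, Oaz2) bind ornithine decarboxylase and send it to the proteasome, and the antizyme inhibitor Azin1, an enzymatically inactive relative of ornithine decarboxylase, binds antizyme in its place. In mouse liver, polyamine synthesis is known to follow the circadian clock and feeding, and in mouse muscle spermine oxidase is known as a gene that is lowered in several kinds of atrophy.

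On mm10, 1-based and from the GENCODE M21 annotation matched by symbol, the synthesis genes lay at chr12:17544794-17551505 (Odc1, plus strand), chr10:40287458-40302186 (Amd1, minus strand), chr4:148591503-148594993 (Srm, plus strand) and chrX:157443855-157492287 (Sms, minus strand). The catabolic genes lay at chrX:155213132-155216449 (Sat1, minus strand), chr7:140115799-140137224 (Paox, plus strand) and chr2:131491496-131525922 (Smox, plus strand). The regulators lay at chr10:80826656-80829290 (Oaz1, plus strand), chr9:65668001-65690300 (Oaz2, plus strand) and chr15:38487427-38519266 (Azin1, minus strand). Several of them have near-identical copies, and how reads that fit more than 1 copy were counted is not given in the sources used here. Of all 50-base runs in the annotated transcripts of Amd1, 78.1% also occur in other genes, most of them in Amd2. Amd2 is a second S-adenosylmethionine decarboxylase gene on chromosome 10, and its own values are not given here. The shared portion was 25.9% for Paox, 24.3% for Odc1, 21.0% for Oaz1, 17.5% for Sms, 7.42% for Oaz2, 2.72% for Sat1 and 2.01% for Srm, nearly all of it with processed pseudogenes, and 0 for Smox and Azin1. The values of Amd1 are therefore uncertain, and those of Paox, Odc1, Oaz1 and Sms may include reads of their copies. The library kit does not mark strand, and 358 exonic bases of Azin1 overlap the antisense gene Gm49077 and 142 of Paox overlap Echs1, so reads there cannot be assigned to either gene.

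The coding regions of Amd1 and Amd2 differed at 1 of 1002 bases, which is shown because it sets what any value of Amd1 can mean. Both runs cover coding bases 736 to 855 (GENCODE M21 transcripts), and the capital marks the base that differs.
Amd1: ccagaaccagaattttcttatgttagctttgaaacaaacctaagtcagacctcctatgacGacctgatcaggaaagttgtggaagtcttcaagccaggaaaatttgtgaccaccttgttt
Amd2: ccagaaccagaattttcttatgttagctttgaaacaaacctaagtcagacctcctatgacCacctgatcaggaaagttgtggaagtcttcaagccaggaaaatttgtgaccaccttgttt
A short read that does not cross that base cannot be placed in the coding region of either gene.

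Levels are given in FPKM, fragments or reads per kilobase of gene, scaled to the reads of the library, as deposited, and differences as fasted minus fed on the log2(FPKM + 0.5) scale with their standard error (SE). Tests were limma's moderated tests across every gene that reached 1 FPKM in 3 or more of the tissue's libraries, with Benjamini-Hochberg adjustment over those genes and a threshold of 0.05. The steps between low values put sequencing depth at 17.1 to 35.1 M reads, with a median of 25.5 M, at which 1 FPKM stood for about 40.8 reads of the short gene Srm and about 159 reads of Azin1, taking the annotated exon length. Hepatocyte markers summed to 58464 to 93831 FPKM in liver and to 4.47 to 227 FPKM in muscle, and skeletal muscle markers to 79323 to 140280 FPKM in muscle and 0.467 to 378 FPKM in liver, so that each library carried the markers of its labelled tissue. In whole tissue, fewer cells of a type and less RNA per cell cannot be told apart. The median effect over all genes tested was -0.13 in liver and -0.17 in muscle, and scaling by median of ratios brought it to 0.018 and -0.017, quantile normalisation to 0.013 and -0.045. Median-of-ratios scaling moved the effects of the polyamine genes up by 0.13 to 0.17 in liver and 0.10 to 0.17 in muscle. Quantile normalisation moved them by 0.12 to 0.19 in liver and by -0.040 to 0.32 in muscle.

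Of the 10 genes, 9 could be tested in muscle and 7 in liver. Oaz1, the more widely expressed antizyme, was listed at 0 in all 36 muscle libraries and was above 0 in 2 fed liver libraries, at 0.381 and 0.407 FPKM, and in 1 fasted one, at 0.165 FPKM. Of 80 rows taken by a ribosomal protein symbol, 3 also stayed under 1 FPKM everywhere, and which rows these were was not examined. Of 12 genes that every cell uses, 0 were at 0 in every library. Why Oaz1 is at 0 was not tested, so its row is taken only as listed at 0 and not as a measured absence. In liver, Amd1 was above 0 in 7 of 18 fed and 4 of 18 fasted libraries, at no more than 0.612 FPKM, and was listed at 0 in the others. Sms was low in liver, at 0.392 ± 0.105 FPKM fed and 0.233 ± 0.0656 FPKM fasted (SD, n = 18 each), under the filter for testing.

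In muscle, fasting was accompanied by a large rise of Odc1 and by falls of both of its tested regulators, Oaz2 and Azin1, and of Amd1 and Smox. Of the 9 genes tested, 4 rose (Odc1, Sat1, Srm, Paox), 4 fell (Amd1, Smox, Oaz2, Azin1) and Sms did not pass. Paox met the filter only through fasted libraries, as given below. Over all 11223 genes tested in muscle, 82.1% passed the same test, 30.3% as higher and 51.8% as lower, so that the number of genes that passed is close to the background. The sizes were larger: the median absolute effect of the 9 genes was 0.78, against 0.41 over all genes.

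Odc1 had the largest change. In fed muscle its 3 levels were 38.1, 38.4 and 45.7 FPKM at ZT0, 33.3, 50.1 and 50.3 at ZT4, 31.4, 43.5 and 43.8 at ZT8, 39.3, 52.8 and 58.3 at ZT12, 32.8, 36.9 and 42.3 at ZT16, and 39.6, 56.2 and 59.7 at ZT20. In fasted muscle they were 178, 182 and 233 FPKM at ZT0, 110, 161 and 246 at ZT4, 165, 177 and 195 at ZT8, 131, 146 and 197 at ZT12, 152, 191 and 194 at ZT16, and 125, 170 and 200 at ZT20. All 18 fasted libraries lay above all 18 fed ones. The mean level went from 44.0 ± 8.80 to 175 ± 35.1 FPKM (SD, n = 18 each), a factor of 3.98, and the effect was 1.98 ± 0.098 (SE, limma adjusted p = 8.6e-19). It was called at each of the 6 times, with effects of 1.64 to 2.26, and the difference between times did not pass (adjusted p = 0.39). Here and wherever fed and fasted groups did not overlap, in either tissue, the share of all genes that separate this way was not counted. Such separation is a description only.

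The regulators of the enzyme moved the other way. Oaz2, the antizyme with usable values, fell from 55.9 ± 3.43 to 32.1 ± 5.39 FPKM, all 18 fasted libraries lying below all 18 fed ones, with an effect of -0.81 ± 0.052 (adjusted p = 8.6e-16). Azin1, the antizyme inhibitor, fell from 11.7 ± 1.78 to 6.89 ± 2.17 FPKM, an effect of -0.77 ± 0.10 (adjusted p = 3.9e-08). Its fed libraries spanned 7.11 to 14.1 FPKM with a median of 12.3, its fasted ones 3.72 to 11.7 with a median of 6.33, and the groups overlapped. Averaged over the 6 times, the antizyme and the protein that counters it thus had lower transcript levels together, by effects of like size. At single times their effects were unlike: -1.39 for Azin1 and -0.53 for Oaz2 at ZT0, and -0.28 and -1.11 at ZT12.

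The remaining synthesis genes did not follow Odc1. Amd1 fell from 6.63 ± 2.23 to 2.27 ± 1.42 FPKM, with an effect of -1.48 ± 0.20 (adjusted p = 4.5e-08), and its groups overlapped, the fed libraries reaching down to 2.79 and the fasted ones up to 4.97 FPKM. Since its sequence is shared with Amd2, this change cannot be told apart from a change of that copy. Srm rose from 4.36 ± 0.876 to 5.60 ± 1.14 FPKM, an effect of 0.33 ± 0.075 (adjusted p = 0.00018), with overlapping groups. Sms stood at 17.4 ± 1.17 FPKM fed and 18.3 ± 1.46 FPKM fasted, and its effect of 0.065 ± 0.038 did not pass (adjusted p = 0.11, 95% interval -0.0090 to 0.14). Its call depended on the scaling: with median-of-ratios scaling the effect of Sms was 0.23 (adjusted p = 2.6e-05), and without fasted ZT4 replicate 4 it was 0.078 (adjusted p = 0.0496).

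Among the catabolic genes, the acetyltransferase and the oxidases went apart. Sat1 rose from 10.1 ± 1.10 to 17.9 ± 3.17 FPKM, a factor of 1.77, and all 18 fasted libraries were above all 18 fed ones (effect 0.78 ± 0.061, adjusted p = 1.5e-13). Smox, the most abundant of the 10 genes in fed muscle, fell from 237 ± 39.9 to 90.8 ± 38.7 FPKM, a factor of 2.61, with an effect of -1.48 ± 0.13 (adjusted p = 1.6e-12). The highest fasted library of Smox, at 167 FPKM, lay just above the lowest fed one, at 159 FPKM, and at each of the 6 times the groups did not overlap. Paox was near the floor of the test, at 0.741 ± 0.109 FPKM fed and 0.944 ± 0.249 FPKM fasted, and its effect was 0.21 ± 0.061 (adjusted p = 0.0026). Its highest fed library was at 0.959 FPKM and its highest fasted one at 1.76 FPKM. It thus met the filter of 1 FPKM only through fasted libraries, and its call as higher is not independent of that filter. Hepatocyte markers, all 8 of which were detected, summed to 12.2 to 227 FPKM in fed muscle and 4.47 to 30.0 FPKM in fasted muscle, and 8 of 8 were lower after fasting. Their part in the muscle effects was not tested beyond a fit at ZT16 and ZT20 alone, in which the effect of Paox was 0.13 (adjusted p = 0.17) and the other calls of the whole-gene fasting effect held. Adipocyte markers (3 of 4 fell, none rose) and fibroblast markers (4 of 5 fell) also moved with fasting in muscle, with sums of 177 to 1054 FPKM fed and 159 to 784 FPKM fasted and of 288 to 485 FPKM fed and 227 to 398 FPKM fasted, and their part was not tested.

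**Figure D1:**
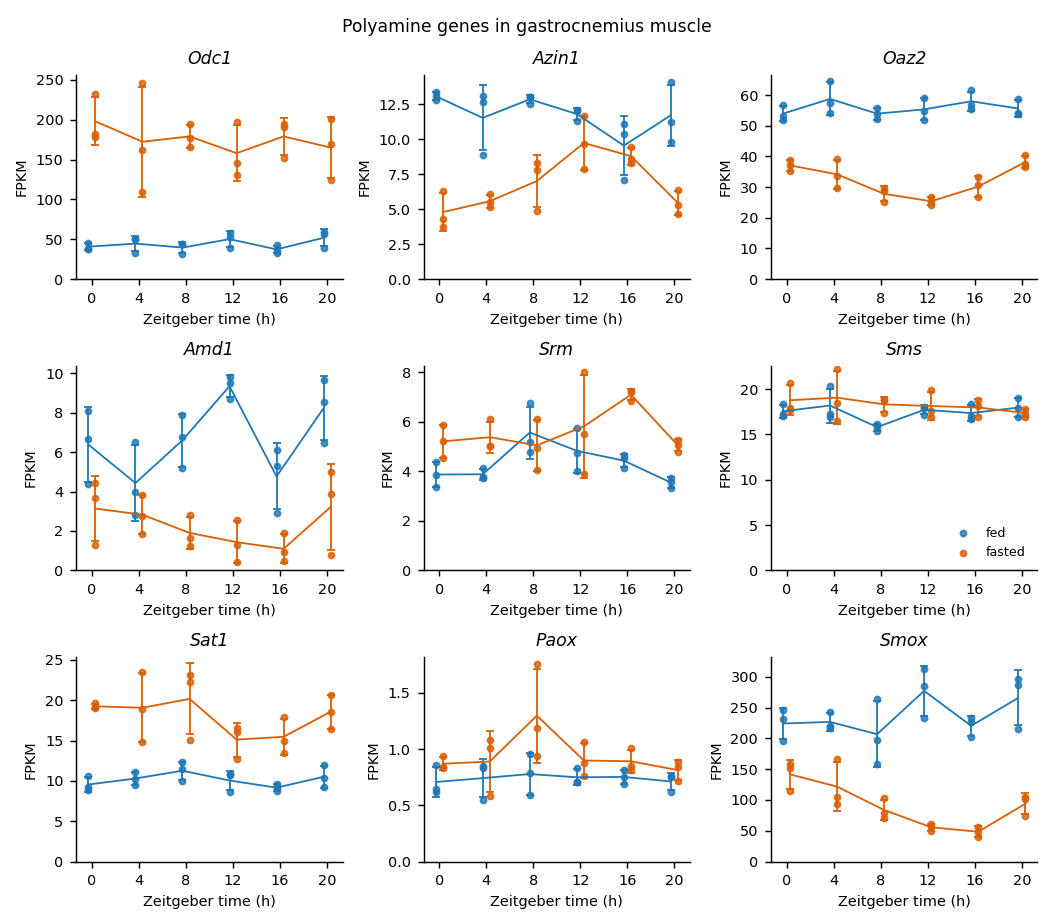
Levels (FPKM, linear axes from 0) of the 9 polyamine genes measured in gastrocnemius muscle against Zeitgeber time in hours, fed in blue and fasted in orange; each point is a library, lines join the means of 3 libraries and bars are their SD. Fasted Odc1 and Sat1 lie above and fasted Oaz2 and Smox below the fed libraries at every time, and the fasted curves of Smox, Oaz2 and Azin1 bend with time while the fed ones stay nearly level.

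The muscle response of 3 genes also depended on the time of day: Smox, Oaz2 and Azin1 passed the test of fasting by time (adjusted p = 0.00015, 0.0039 and 0.0024), where 22.9% of all genes did. The effect of Smox went from -0.67 ± 0.20 at ZT0 to -2.30 ± 0.20 at ZT12 and -2.19 ± 0.20 at ZT16. Its fasted means were 142 ± 23.8 FPKM at ZT0, 122 ± 39.4 at ZT4, 83.7 ± 16.9 at ZT8, 55.6 ± 5.31 at ZT12, 48.4 ± 8.61 at ZT16 and 93.8 ± 16.7 at ZT20 (SD, n = 3 each), while the fed means stayed between 207 and 277 FPKM. Fasted Smox was thus lowest around the start of the dark phase and highest at lights on. Oaz2 had its largest effect at the same time, -1.11 ± 0.093 at ZT12, against -0.53 ± 0.093 at ZT0. Azin1 ran opposite to both, with an effect of -1.39 ± 0.19 at ZT0 that shrank to -0.28 ± 0.19 at ZT12 and -0.090 ± 0.19 at ZT16, neither of which passed. Its fasted mean rose from 4.79 ± 1.36 FPKM at ZT0 to 9.72 ± 1.91 at ZT12, within the range of the fed libraries. Counted by time, 6, 6, 8, 5, 6 and 7 of the 9 genes passed from ZT0 to ZT20, where 56.4%, 60.4%, 63.9%, 63.1%, 61.7% and 47.6% of all genes did. Srm passed at 4 of the 6 times and Paox at ZT8 only, or at 5 times with quantile normalisation, and Srm passed at 2 times without any of fasted ZT20 replicates 1 and 2, fed ZT4 replicate 5 or fed ZT20 replicate 5.

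Rhythms were read from a 24-h cosine fitted within each feeding state over the 6 times, which cover a single cycle; amplitudes are on the log2 scale, from mean to peak. In fed muscle 0 of the 9 genes passed by limma, where 4.46% of all genes did, and 1 had an unadjusted p under 0.05. That gene was Srm (amplitude 0.25, adjusted p = 0.092), which passed after median-of-ratios scaling (adjusted p = 0.0087), after quantile normalisation (adjusted p = 0.0033) and without fasted ZT12 replicate 5 (adjusted p = 0.041). In fasted muscle 5 of 9 passed, against 47.4% of all genes: Smox (amplitude 0.76, peak at ZT1.7), Oaz2 (0.30, ZT22.9), Azin1 (0.48, ZT12.7), Amd1 (0.61, ZT1.3) and Sat1 (0.18, ZT2.4). The test of the difference between fed and fasted rhythms passed for Smox, Oaz2 and Azin1 (adjusted p = 9.2e-06, 0.00020 and 0.00031), 3 of 9 genes against 32.6% of all genes. The fasted rhythms of Amd1 and Sat1 were near the threshold (adjusted p = 0.031 and 0.045). Amd1 did not pass without any of fasted ZT0 replicates 1 and 5, ZT4 replicate 4, ZT12 replicate 2 or ZT16 replicates 2 and 5 (adjusted p up to 0.10), and Sat1 did not pass in 14 of the 36 fits that left out a library, 10 of them fasted (adjusted p up to 0.12).

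Liver responded differently: its most affected gene was Paox, and Odc1 did not pass over the day. Of the 7 genes tested, 0 rose, 4 fell (Paox, Srm, Smox, Oaz2) and 3 did not pass (Odc1, Sat1, Azin1), by limma and equally at an unadjusted p under 0.05. Over all 10780 genes tested in liver 73.0% passed, 25.0% as higher and 48.0% as lower. The median effect of the 7 genes was -0.33, against -0.13 over all genes. Their median absolute effect was 0.33, against 0.33 over all genes, so the sizes in liver were like the background. Macrophage markers moved with fasting in liver too (6 of 7 fell, with sums of 47.6 to 186 FPKM fed and 27.3 to 90.5 FPKM fasted), as did endothelial markers (3 of 5 fell, with sums of 11.4 to 25.9 FPKM fed and 9.33 to 20.6 FPKM fasted). Of 4 erythroid markers 2 were in the table, of which 1 fell, and their sums did not overlap, at 56.6 to 89.5 FPKM fed and 12.4 to 33.6 FPKM fasted. The part of these cells in the liver effects was not tested.

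Paox fell in every comparison made. In fed liver its 3 levels were 7.15, 8.12 and 10.2 FPKM at ZT0, 6.36, 6.38 and 6.71 at ZT4, 5.21, 6.20 and 7.16 at ZT8, 4.54, 4.90 and 5.75 at ZT12, 4.93, 5.72 and 7.22 at ZT16, and 6.53, 6.76 and 7.50 at ZT20. In fasted liver they were 1.71, 1.81 and 1.98 FPKM at ZT0, 1.06, 1.37 and 1.38 at ZT4, 1.76, 1.77 and 1.99 at ZT8, 2.28, 2.38 and 2.98 at ZT12, 2.14, 2.24 and 2.33 at ZT16, and 1.77, 1.96 and 1.99 at ZT20. All 18 fasted libraries were below all 18 fed ones, and the mean level was lower by a factor of 3.36. The effect was -1.52 ± 0.084 (SE, limma adjusted p = 5.4e-17) and it was called at all 6 times, from -0.87 ± 0.13 at ZT12 to -1.99 ± 0.13 at ZT4.

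The other falls in liver were smaller. Oaz2 went from 9.61 ± 0.905 to 7.55 ± 0.919 FPKM (effect -0.33 ± 0.050, adjusted p = 5.1e-07), with overlapping groups, and passed at ZT0, ZT4, ZT8 and ZT20. With median-of-ratios scaling or quantile normalisation it passed at 2 times. Smox, at 1.74 ± 0.340 FPKM fed and 1.25 ± 0.441 FPKM fasted, had an effect of -0.38 ± 0.092 (adjusted p = 0.00048) and passed at ZT8, ZT12, ZT16 and ZT20. With quantile normalisation it passed at 2 times, and with median-of-ratios scaling it passed as lower at 3 times and as higher at 1. Its effect was positive at ZT0 (0.29 ± 0.17) and was 0.087 (adjusted p = 0.60) in a fit of ZT0 and ZT4 alone. Muscle transcripts were present in part of the liver libraries and moved with this gene: Acta1, the skeletal muscle actin, was at 7.47 to 29.3 FPKM in fed liver from ZT8 to ZT20, at most 0.179 FPKM in fed liver at ZT0 and ZT4, at 0.862 to 126 FPKM in fasted liver at ZT4 and at most 0.139 FPKM in other fasted libraries, and 8 of 8 muscle markers were lower after fasting. The level of Smox was 237 FPKM in fed muscle and 1.74 FPKM in fed liver. After subtraction of a muscle share set by Acta1, chosen after seeing the data, the effect of Smox was -0.36 (adjusted p = 0.0012), it passed at 2 times, and its difference between times no longer passed (adjusted p = 0.090).

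Srm, spermidine synthase, went from 18.7 ± 7.46 to 13.4 ± 3.62 FPKM in liver with an effect of -0.42 ± 0.12 (adjusted p = 0.0022). Its effect was below 0 at each of the 6 times and largest at ZT16, the only time that passed, where the fed libraries were at 24.0, 31.6 and 32.9 FPKM and the fasted ones at 9.46, 10.2 and 11.8 FPKM (effect -1.44 ± 0.22, adjusted p = 7.8e-06). With median-of-ratios scaling the effect over the day was -0.25 and did not pass (adjusted p = 0.053). ZT12 also passed without fasted ZT12 replicate 5 or fed ZT12 replicate 4, which made 2 times in place of 1.

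Odc1, Azin1 and Sat1 had effects of -0.040 (95% interval -0.28 to 0.20), 0.020 (-0.18 to 0.22) and -0.034 (-0.27 to 0.20) over the day in liver. With median-of-ratios scaling Odc1 and Sat1 had effects of 0.13 and 0.14, which did not pass either. For Odc1 the net value combined opposite effects at different times: it was lower after fasting at ZT0 (-0.47 ± 0.20), ZT16 (-0.67 ± 0.20) and ZT20 (-0.50 ± 0.20) and higher at ZT8 (0.79 ± 0.20). The fed means of Odc1 were 21.6 ± 4.48, 16.4 ± 3.69, 15.2 ± 1.54, 18.9 ± 3.51, 30.7 ± 7.18 and 23.0 ± 5.41 FPKM from ZT0 to ZT20, and the fasted means 15.3 ± 1.01, 21.7 ± 4.55, 26.5 ± 1.06, 22.0 ± 4.40, 18.9 ± 2.54 and 16.0 ± 3.14 FPKM (SD, n = 3 each). At ZT8 all 3 fasted libraries were above the fed ones. The lower values were less stable: with median-of-ratios scaling 2 times were higher and 0 lower, and after quantiles were equalised 2 higher and 1 lower. Without a filter on low values, or without fasted ZT0 replicate 4 or fed ZT0 replicate 3, a single time was lower. Azin1 was higher after fasting at ZT0 (0.85 ± 0.19, adjusted p = 0.00028), when its fed libraries were at 8.30 to 9.81 FPKM and its fasted ones at 14.1 to 18.8 FPKM. At ZT12 its effect of -0.51 ± 0.19 passed (adjusted p = 0.030), but not under either other scaling or without fasted ZT12 replicate 5 or fed ZT12 replicates 3 or 4. Sat1 passed at 0 of the 6 times by limma, and at 1 of them with an unadjusted p under 0.05. Its fasted mean was raised by fasted ZT0 replicate 1 at 61.7 FPKM and fasted ZT12 replicate 5 at 68.9 FPKM, where the other 16 fasted libraries were at 16.8 to 38.2 FPKM. Without fasted ZT12 replicate 5, Sat1 passed the test of fasting by time (adjusted p = 0.042).

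**Figure D2:**
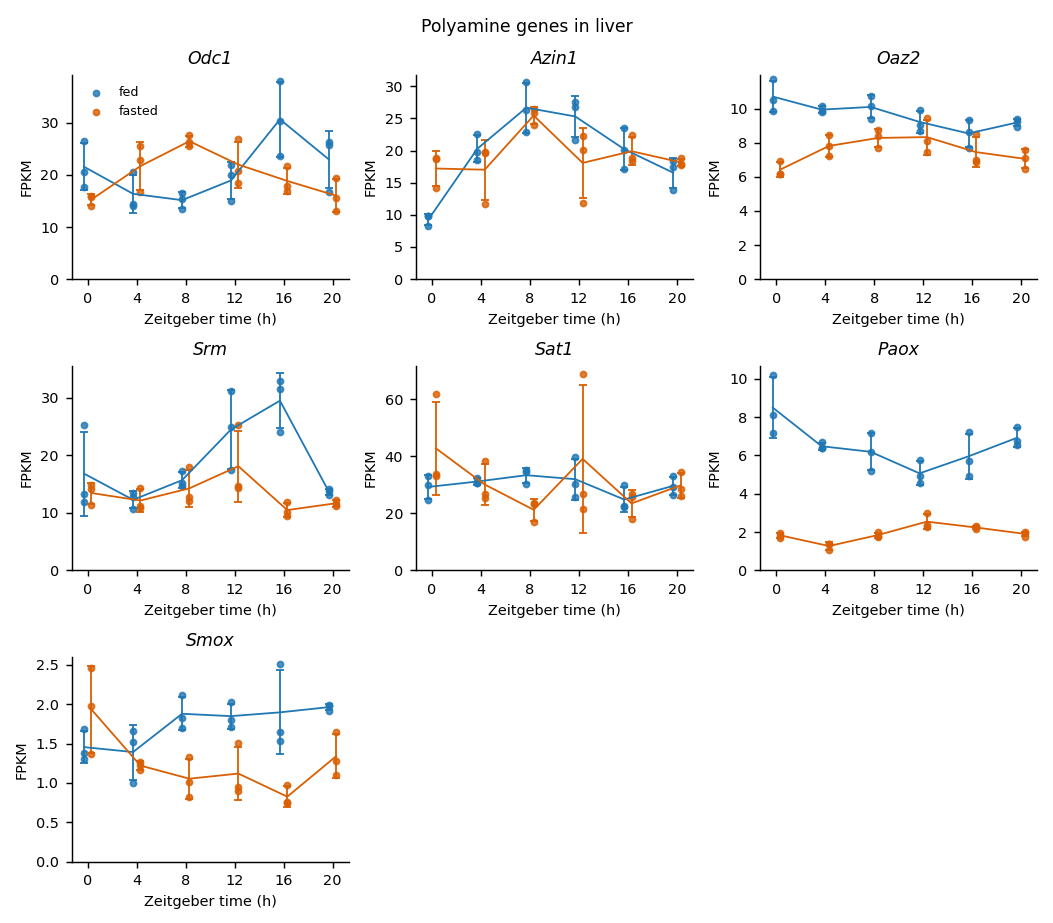
Levels (FPKM, linear axes from 0) of the 7 polyamine genes tested in liver against Zeitgeber time in hours, fed in blue and fasted in orange; each point is a library, lines join the means of 3 libraries and bars are their SD. Fasted Paox lies between 1.06 and 2.98 FPKM and every fed library of it is higher, and the fed and fasted curves of Odc1 cross, with fed highest at ZT16 and fasted highest at ZT8.

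In liver 6 of the 7 genes, all but Sat1, passed the test of fasting by time, against 40.7% of all genes. Fed rhythms passed for 5 of 7 genes, against 39.7% of all genes: Azin1 (amplitude 0.61, peak at ZT10.7), Srm (0.52, ZT14.3), Odc1 (0.42, ZT18.1), Paox (0.28, ZT23.9) and Oaz2 (0.13, ZT3.3). Fasted rhythms passed for 4 of 7, against 31.0% of all genes: Odc1 (0.37, ZT8.9), Smox (0.30, ZT0.49), Paox (0.30, ZT14.7) and Oaz2 (0.16, ZT10.0). The fitted peak of Odc1 thus lay in the dark phase in fed and in the light phase in fasted liver. That of Paox also differed, at ZT23.9 in fed liver, just before lights on, and at ZT14.7 in fasted liver. The test of the difference between rhythms passed for 6 of 7 genes, against 32.4% of all genes, with amplitudes of the difference of 0.73 for Odc1 (adjusted p = 0.00032) and 0.54 for Paox (adjusted p = 0.00022). Calls of the other 4 were less stable, and the fed rhythm of Paox did not pass without the ZT0 libraries, as given below. The fed rhythm of Oaz2 (adjusted p = 0.039) did not pass without any of fed ZT0 replicates 1 and 5, ZT12 replicates 3 and 4 or ZT16 replicates 1 and 3 (adjusted p up to 0.13), nor after median-of-ratios scaling (adjusted p = 0.16) or quantile normalisation (adjusted p = 0.055). Its test of fasting by time (adjusted p = 0.024) did not pass without any of fasted ZT0 replicates 4 and 5 or fed ZT0 replicate 1 (adjusted p up to 0.091). The fasted rhythm of Smox (adjusted p = 0.011) did not pass without fasted ZT0 replicate 1 (adjusted p = 0.058), with quantile normalisation (adjusted p = 0.056) or after subtraction of the muscle share (adjusted p = 0.13). The rhythm difference of Smox did not pass after that subtraction either (adjusted p = 0.17). The rhythm difference of Azin1 (adjusted p = 0.033) did not pass without any of fasted ZT0 replicates 4 and 5, fasted ZT12 replicate 5, fed ZT0 replicates 1, 3 and 5 or fed ZT8 replicate 5 (adjusted p up to 0.077), and that of Srm (adjusted p = 0.030) without any of fasted ZT16 replicates 4 and 5, fed ZT4 replicate 4 or fed ZT16 replicates 2 and 3 (adjusted p up to 0.065). Without a filter on low values neither rhythm difference passed (adjusted p of 0.058 for Azin1 and 0.054 for Srm). Sat1, by contrast, passed the fasted rhythm (adjusted p = 0.0022) and the difference (adjusted p = 0.015) without fasted ZT12 replicate 5.

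The liver libraries of ZT0 stood apart, which touches these calls. The share of all genes that differed between fed and fasted liver was 67.4% at ZT0 and 44.2%, 38.6%, 40.7%, 47.1% and 45.7% from ZT4 to ZT20, where 4, 2, 4, 3, 4 and 4 of the 7 polyamine genes did. Beside this, fed ZT0 libraries had lower values of long genes, with a slope of -0.15 to -0.086 log2 per doubling of exon length where fasted ZT0 libraries had 0.059 to 0.088. Without ZT0, Odc1, Srm and Paox passed the test of fasting by time and the rhythm difference, while Smox, Oaz2 and Azin1 passed neither (adjusted p of 0.23, 0.66 and 0.38 for fasting by time). The fed rhythms of Paox (adjusted p = 0.052) and Oaz2 (adjusted p = 0.14) then did not pass. Neither did the fasted rhythms of Smox (adjusted p = 0.32) and Oaz2 (adjusted p = 0.10). The effects over the day kept their calls without ZT0: Paox was at -1.44, Smox at -0.51, Srm at -0.45 and Oaz2 at -0.26.

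**Figure D3:**
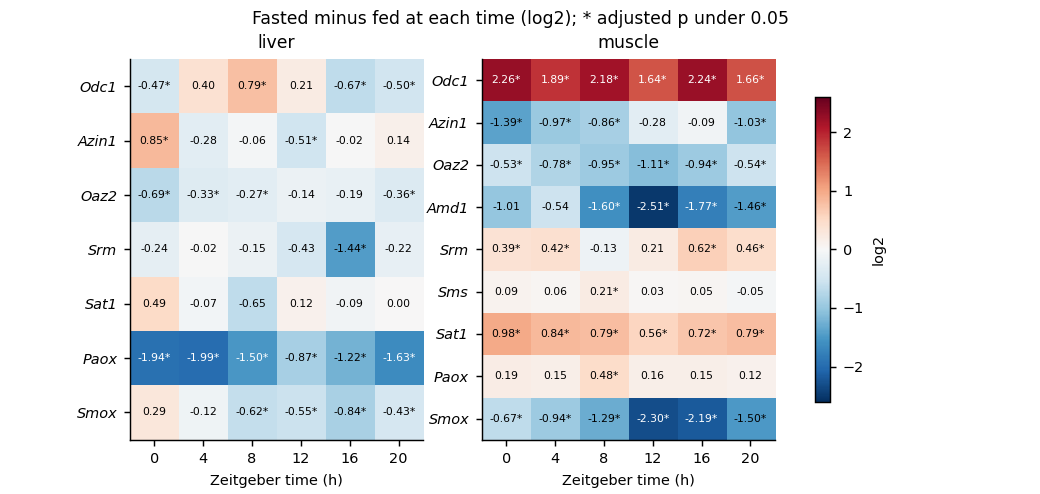
Fasted minus fed difference (log2(FPKM + 0.5)) of each polyamine gene at each Zeitgeber time (h), liver left and muscle right, red higher and blue lower after fasting; numbers are the effects and a star marks an adjusted p under 0.05. Odc1 is red at all 6 times in muscle and changes sign with time in liver, and Paox is blue at all 6 times in liver.

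The exonic and intronic tables hold 7 of the 10 genes, and Amd1, Smox and Oaz1 were not analysed there. Intronic reads come mostly from RNA that has not been spliced, so intronic signal follows newly made RNA more closely than exonic signal does. Each table is scaled to its own total. In muscle the exonic effects of 4 genes were higher (Odc1, Sat1, Srm, Paox) and of 2 lower (Oaz2, Azin1), where 82.5% of all genes passed (28.5% higher, 54.0% lower). The intronic effects of 4 were higher (Odc1, Paox, Sat1, Sms) and of 2 lower (Oaz2, Srm), where 69.7% of all genes passed (26.8% higher, 42.9% lower). Intronic Sms lay around the filter, as given below. Intronic Odc1 went from 19.1 ± 13.9 FPKM fed to 89.9 ± 30.9 FPKM fasted (SD, n = 18 each), an effect of 2.35 ± 0.21 beside an exonic effect of 1.96 ± 0.095. The exonic minus intronic difference of Odc1, -0.38 ± 0.19, did not pass (adjusted p = 0.096), though it did without fasted ZT0 replicate 1 (adjusted p = 0.049), fed ZT4 replicate 5 (adjusted p = 0.032) or fed ZT20 replicate 5 (adjusted p = 0.037). Odc1 thus rose in both tables.

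In muscle the exonic and intronic effects differed for Srm, Azin1 and Sms, where 52.5% of all genes differed (26.9% higher and 25.7% lower in exons). Srm was higher in exons (0.30 ± 0.077) and lower in introns (-0.59 ± 0.21), a difference of 0.89 ± 0.19 (adjusted p = 0.00023). Its intronic means were 4.16 ± 1.44 FPKM fed and 2.75 ± 1.43 FPKM fasted, and the intronic fall did not pass with quantile normalisation (adjusted p = 0.059). Azin1 was lower in exons (-0.82 ± 0.11), while its intronic effect of -0.12 ± 0.13 did not pass, a difference of -0.70 ± 0.11 (adjusted p = 1.8e-06). In the fit of ZT16 and ZT20 alone, that difference of Azin1 was -0.30 and did not pass (adjusted p = 0.14). Sms was the reverse, with an exonic effect of 0.048 ± 0.037 that did not pass and an intronic effect of 0.25 ± 0.073. The difference of -0.20 ± 0.075 (adjusted p = 0.022) did not pass with median-of-ratios scaling (-0.10, adjusted p = 0.28). Intronic Sms lay around the filter of 1 FPKM, at 0.854 ± 0.138 FPKM fed (median 0.873) and 1.13 ± 0.308 FPKM fasted (median 1.12). Its intronic call as higher may therefore depend on that filter. Oaz2 fell in exons (-0.83 ± 0.052) and introns (-0.67 ± 0.11), and Sat1 rose in exons (0.75 ± 0.064) and introns (0.64 ± 0.069).

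In liver 6 of the 7 genes passed the filter of both tables, Sms not. Exonic effects were lower for Paox, Srm and Oaz2, where 72.7% of all genes passed (26.3% higher, 46.4% lower), and intronic effects for Paox, Sat1 and Oaz2, where 59.7% did (18.6% higher, 41.1% lower). Paox fell by 1.52 ± 0.082 in exons and by 1.72 ± 0.13 in introns, and the difference of 0.21 ± 0.12 did not pass (adjusted p = 0.18). Only Sat1 passed the test of unequal effects in liver, as higher in exons, 0.0065 ± 0.12 in exons and -0.36 ± 0.13 in introns (difference 0.37 ± 0.11, adjusted p = 0.0075), where 38.8% of all genes differed (23.9% higher and 14.8% lower in exons). Its intronic fall did not pass with median-of-ratios scaling (-0.16, adjusted p = 0.32) or quantile normalisation (-0.20, adjusted p = 0.14), and neither did that of Oaz2 (-0.12 and -0.11). The exonic fall of Srm did not pass with median-of-ratios scaling (-0.24, adjusted p = 0.062). Intronic Azin1, at 0.18 (adjusted p = 0.13), passed as higher with median-of-ratios scaling (0.35, adjusted p = 0.0059), quantile normalisation (0.34, adjusted p = 0.0041) and at ZT0 and ZT4 alone (0.46, adjusted p = 0.023).

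Sat1 and Paox had higher values in the intronic than in the exonic table, the other 5 genes lower. As each table is scaled to its own total, these values do not compare signal per base between introns and exons. The mean intronic level of Paox was 2.19 FPKM in muscle and 6.18 FPKM in liver, against exonic means of 1.08 and 5.05 FPKM. That of Sat1 was 104 FPKM in muscle and 81.1 FPKM in liver, against 18.5 and 39.4 FPKM in exons. Its intronic level ranked Sat1 73rd in muscle and 143rd in liver among the 19433 genes of the intronic table. In the GENCODE M21 annotation 544 bases of the 3318 bases of Sat1 lie outside its exons, so introns of Sat1 are a short stretch, and which bases the authors counted as intron is not given in the sources used here. For comparison, Odc1 was at 54.5 FPKM in introns and 142 FPKM in exons in muscle.

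**Figure D4:**
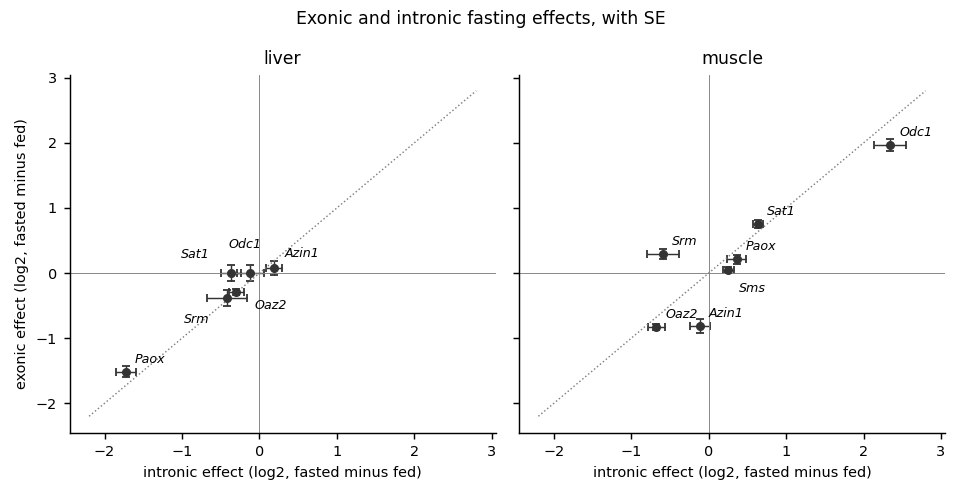
Exonic against intronic fasting effect (log2, fasted minus fed) for the polyamine genes past the filter of both tables, liver left (6 genes) and muscle right (7 genes); bars are SE, the dotted line marks equal effects. In muscle Srm lies above the line with an exonic effect of 0.30 and an intronic one of -0.59, Azin1 lies below it, and Odc1 is high on both axes.

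Levels of the genes were ordered differently in the tissues. In fed muscle the order of mean FPKM was Smox, Oaz2, Odc1, Sms, Azin1, Sat1, Amd1, Srm and Paox, and the ranges of Oaz2 with Odc1, Azin1 with Sat1, Sat1 with Amd1 and Amd1 with Srm overlapped. In fasted muscle Odc1 came before Smox, followed by Oaz2, Sms, Sat1, Azin1, Srm, Amd1 and Paox, and neighbours overlapped except Oaz2 with Sms and Sat1 with Azin1. In fed liver the order was Sat1 (30.0 ± 4.53 FPKM), Odc1 (21.0 ± 6.56), Azin1 (19.7 ± 6.36), Srm (18.7 ± 7.46), Oaz2 (9.61 ± 0.905), Paox (6.52 ± 1.35) and Smox (1.74 ± 0.340), and each overlapped the next except Paox and Smox. In fasted liver Paox (1.94 ± 0.437 FPKM) and Smox (1.25 ± 0.441) overlapped, Srm with Oaz2 and Oaz2 with Paox did not, and the order was the same. Fed liver and fed muscle differed for all 7 genes tested in both, against 89.5% of all 9419 genes (41.8% higher and 47.7% lower in liver): liver was higher by 2.48 ± 0.056 for Paox, 1.91 ± 0.082 for Srm, 1.51 ± 0.093 for Sat1 and 0.66 ± 0.078 for Azin1, and lower, with liver minus muscle differences of -1.09 ± 0.090 for Odc1, -2.48 ± 0.038 for Oaz2 and -6.72 ± 0.077 for Smox.

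The fasting effect itself differed between tissues for all 7 genes, where 70.3% of all genes differed (31.8% with a positive and 38.5% with a negative difference). Liver minus muscle was -2.02 ± 0.13 for Odc1 (adjusted p = 3.3e-20) and -1.73 ± 0.080 for Paox (adjusted p = 4.2e-26). For Srm the effects had opposite signs that each passed, lower in liver and higher in muscle. Paox was lower in liver and higher in muscle too, but it met the filter in muscle only through fasted libraries. Smox and Oaz2 fell in both tissues and by more in muscle, the differences being 1.10 ± 0.11 and 0.48 ± 0.054, although part of the values of Smox in liver moved with muscle transcripts as given above. Odc1 and Sat1 rose and Azin1 fell in muscle, and their effects in liver did not pass.

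**Figure D5:**
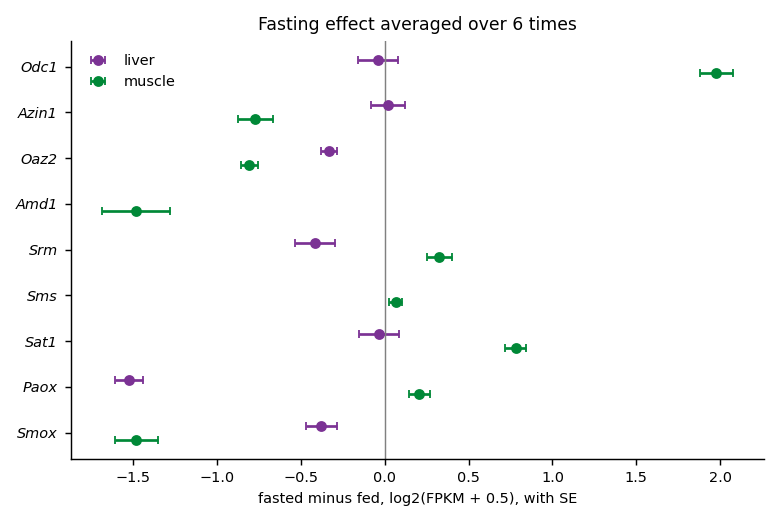
Fasting effect over the 6 times (fasted minus fed, log2(FPKM + 0.5)) of each polyamine gene in liver (purple, 7 genes) and muscle (green, 9 genes); points are estimates and bars SE. Odc1 is at 1.98 in muscle and -0.040 in liver, and Paox at -1.52 in liver and 0.21 in muscle.

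Other genes of polyamine metabolism and its supply were read from lists set by textbook role. Their counts stand beside the 82.1% of all genes that passed in muscle and 73.0% in liver, and their medians beside -0.17 and -0.13, and nothing particular to the lists is read from them. Of 10 further polyamine genes (Amd2, a second acetyltransferase, antizyme and copper amine oxidase relatives, and transporters) 5 were tested in each tissue. In muscle 2 rose and 3 fell with a median effect of -0.53, and Slc18b1, a vesicular polyamine transporter, was at -0.90 ± 0.064 (adjusted p = 1.3e-14). In liver 1 rose and 3 fell, with a median of -0.21. Of 4 hypusine genes, which use spermidine to modify the translation factor eIF5A, 3 were tested; 2 fell in muscle and 1 in liver and none rose. Of 6 genes of ornithine supply, 3 were tested in muscle (1 rose, 2 fell) and 5 in liver (2 rose, 3 fell). Oat, ornithine aminotransferase, rose in muscle (0.48 ± 0.035, adjusted p = 2.5e-14). In liver Arg1, the arginase that releases ornithine, rose (1.14 ± 0.067, adjusted p = 3.0e-16), and Gatm, which diverts arginine to creatine, fell (-1.38 ± 0.089, adjusted p = 2.7e-15).

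Of 10 genes of the methionine cycle and salvage, 9 were tested in muscle, of which 2 rose and 7 fell with a median of -0.56. Enoph1, a salvage enzyme that recycles the by-product of spermidine and spermine synthesis, was at -0.73 ± 0.050 there (adjusted p = 4.1e-15). In liver 10 were tested, of which 3 rose, 4 fell and 3 did not pass, with a median of -0.025. Mat1a, which makes S-adenosylmethionine in liver, rose (2.65 ± 0.079, adjusted p = 1.4e-23). Ahcy, which clears S-adenosylhomocysteine, rose in both tissues, by 1.22 ± 0.055 in liver (adjusted p = 3.2e-19) and 1.34 ± 0.073 in muscle (adjusted p = 1.2e-17).

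Promoters were searched on both strands, in the 250 bases before each RefSeq start on GRCm38.p6, for CACGTG (E-box), TTATGTAA (D-box), TGACGTCA (cAMP response element), GTAAACA (FOXO core) and AGGTCA (nuclear receptor core). RefSeq windows matched 8 of the 10 genes, not Srm and Azin1. Only the more distal of the windows of Sms held a match, an E-box and a nuclear receptor core, and these letters are found in 6.02% and 14% of all 32851 windows. No match was found in the windows of Odc1, Amd1, Smox, Sat1, Oaz1, Oaz2 and Paox, which says only that the letters are not in those windows. Shown are the windows of Odc1 and Sat1, which rose in all muscle comparisons, and the more distal window of Sms, a gene that did not pass. They run 5′ to 3′ as far as no annotated exon is reached. Capitals mark motif matches: Odc1 at chr12:17544623-17544793 on the plus strand, Sat1 at chrX:155216450-155216699 and Sms at chrX:157492288-157492537 on the minus strand.
Odc1: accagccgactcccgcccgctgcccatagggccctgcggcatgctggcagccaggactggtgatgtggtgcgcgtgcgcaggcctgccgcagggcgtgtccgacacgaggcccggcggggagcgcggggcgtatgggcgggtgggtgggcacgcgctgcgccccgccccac
Sat1: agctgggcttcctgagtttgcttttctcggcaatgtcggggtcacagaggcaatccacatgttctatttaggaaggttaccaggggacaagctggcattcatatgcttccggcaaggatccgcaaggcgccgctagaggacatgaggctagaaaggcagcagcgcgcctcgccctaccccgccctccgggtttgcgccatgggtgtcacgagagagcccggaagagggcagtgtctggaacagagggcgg
Sms: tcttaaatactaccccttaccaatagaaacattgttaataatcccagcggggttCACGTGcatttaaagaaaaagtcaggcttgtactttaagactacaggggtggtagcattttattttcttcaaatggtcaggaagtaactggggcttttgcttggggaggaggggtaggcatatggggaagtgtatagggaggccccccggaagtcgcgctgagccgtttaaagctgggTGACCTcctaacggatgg
G and C made up 77.2% of the run of Odc1, 59.6% of that of Sat1 and 47.2% of that of Sms. In the other window of Sms, not shown, they made up 75.2% of the run before the first annotated exon.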

How the data were processed

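Per the labels' protocols, TRIzol was used to isolate RNA from both tissues, and the TruSeq v2 kit, which leaves strand unmarked, to build libraries. The authors deposited 3 tables of FPKM values: a whole-gene one (20561 genes), an exonic and an intronic one (19433 genes apiece). The unit was taken from the values themselves, which scale with transcript length. The submitters' processing notes name mm10 and CASAVA 1.8.2. Which aligner, counter and gene models were used is not stated there. The labels do not say whether libraries of a group came from separate animals, so the spread behind each p-value may be technical.

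Models on the log2(FPKM + 0.5) scale came from limma 3.58.1 under R 4.3.3, using trended empirical Bayes, for genes reaching 1 FPKM in 3 or more libraries per tissue, with Benjamini-Hochberg adjustment over all genes tested and 0.05 as the threshold. Fasting effects were fitted with time as a factor of 6 levels, effects at each time, fasting by time (F test with 5 degrees of freedom) and tissue differences in models of group means, and rhythms with cosine and sine terms of 24 h fitted separately to fed and fasted (F tests with 2 degrees of freedom). The exonic minus intronic effect used the difference of both log2 values within a library. No pair of libraries held identical values (highest Pearson r 0.997). The fits were tested on simulated data beforehand. Figures used Python 3.11.15 with matplotlib 3.10.9, and tables pandas 2.3.3 with NumPy 2.4.6.

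The 10 genes, the lists of related genes and markers and the tests were chosen with earlier results of these data known. By rule, all 10 genes were described, values of every library were printed for the most changed gene of each tissue, up to 4 genes per tissue of the related lists were named by smallest adjusted p, and the genes most alike were taken by Pearson correlation over 12 group means. Alternatives were pseudocounts of 0.1 and 1, no filter, median-of-ratios scaling, quantile normalisation, a replicate block, robust empirical Bayes, removal of the length trend, subsets of times and each library left out. Fits without ZT0 in liver and with the muscle share subtracted were added after seeing the data. Protein sequences were not used here.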

Additional observations from a re-analysis of the deposited data

Results flagged for a closer look

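The fasting effect differed between liver and muscle, by limma's test of the interaction, for each of the 7 genes tested in both tissues. Liver minus muscle was -2.02 for Odc1, -1.73 for Paox, -0.81 for Sat1, -0.74 for Srm, 1.10 for Smox, 0.79 for Azin1 and 0.48 for Oaz2. Each passed after adjustment over all genes, and for Smox the liver values also moved with muscle transcripts, whose part was measured only by the subtraction given above. Paox met the filter in muscle only through fasted libraries, so its call is not independent of that filter.

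The fasting effect also differed between times of day. In liver the F values of the test, with 5 degrees of freedom, were 10.9 for Paox, 8.44 for Odc1, 6.08 for Azin1, 5.55 for Smox, 5.38 for Srm and 3.95 for Oaz2. In muscle they were 10.8 for Smox, 7.01 for Azin1 and 6.41 for Oaz2. No single library was tested as an outlier, since groups held 3.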

How the results depend on the processing

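In the whole-gene fasting effects of muscle, each gene that passed kept its direction and its call under every alternative run, except Paox at ZT16 and ZT20 alone. In liver, the calls of Paox, Oaz2 and Smox for the effect over the 6 times held under the changes of pseudocount, filter, scaling and block and with each library left out. With 3 libraries a group, and genes near 1 FPKM such as Paox in muscle and Smox in liver, small effects could not be resolved.

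Values changed sign mostly where no effect had passed. In liver, Odc1 was at 0.13 and 0.11 and Sat1 at 0.14 and 0.16 with median-of-ratios scaling and quantile normalisation. At ZT0 and ZT4 alone, where 2 genes passed in place of 4, Smox was at 0.087 and Sat1 at 0.21, and at ZT0 alone 0.29 and 0.49. With the length trend removed Sat1 was at 0.0026 and Azin1 at -0.027, and without ZT0 Odc1 was at 0.045 and Azin1 at -0.15. For exonic values, Odc1 was at -0.33 at ZT0 alone in liver and Sms at -0.0050 at ZT16 and ZT20 alone in muscle. For intronic values, Odc1 in liver was at 0.063, 0.079, 0.45 and 0.19 with median-of-ratios scaling, quantile normalisation, ZT0 and ZT4 alone and ZT0 alone, and Azin1 in muscle at 0.056 with quantile normalisation. Exonic minus intronic in liver, Oaz2 was at -0.017 with pseudocount 1 and -0.093 at ZT0 alone. With the same scalings Oaz2 was at -0.039 and -0.097 and Srm at -0.0019 and -0.098. Odc1 was at -0.39 at ZT0 and ZT4 alone and -0.52 at ZT0 alone, Azin1 at 0.18 at ZT0 alone, and Paox in muscle at 0.032 with quantile normalisation.

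Counts moved as follows. Without ZT0, 3 of the 7 genes passed fasting by time in liver (748 of all genes, from 4388), 3 the fed rhythm (2442, from 4278), 2 the fasted rhythm and 3 the rhythm difference (853, from 3494). In muscle, both scalings gave 1 gene with a fed rhythm and 5 with a rhythm difference, Srm and Amd1 or Srm and Sat1 being added. At ZT16 and ZT20 alone, 3 genes passed for introns, Srm, Oaz2 and Paox not passing (4154 of all genes, from 6377), and 2071 of all genes, from 4375, passed exonic minus intronic. Without a filter, which tests more genes, 3 genes passed the fasted rhythm in muscle, and of all genes 5503 and 7533 passed exonic minus intronic in liver and muscle, 11105 the tissue difference and 15182 fed liver against fed muscle. For changed settings given without a count of all genes, here and in the paragraphs beside this one, the share of all genes is not given. Those counts are therefore no result about the polyamine genes. The causes of these changes were not tested.

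Leaving out a library gave -0.019 to 0.075 for Azin1, -0.11 to 0.0090 for Sat1 and -0.079 to 0.0048 for Odc1 in liver. The exonic ranges were -0.065 to 0.050 for Sat1 and -0.034 to 0.049 for Odc1. Exonic minus intronic ranged from -0.073 to 0.17 for Srm and -0.030 to 0.028 for Oaz2. The number of genes with a rhythm in muscle was 0 to 1 fed, with 1 (Srm) without fasted ZT12 replicate 5. It was 3 to 5 fasted, with 3 without fasted ZT0 replicate 1 or 5, ZT12 replicate 2 or ZT16 replicate 5. Calls gained beyond those in the results were, in muscle, the rhythm difference of Amd1 without fasted ZT0 replicate 3, ZT12 replicate 5, ZT20 replicate 2 or fed ZT16 replicate 1 (adjusted p of 0.022 to 0.046). Others there were the fasted rhythm of Paox without fasted ZT4 replicate 2 (0.025), and Srm in the fasted rhythm without fasted ZT12 replicate 5 (0.038) and in fasting by time without fasted ZT12 replicate 2 (0.022). In liver introns Azin1 passed without fed ZT12 replicate 4 (0.049) and Srm without fed ZT4 replicate 4 (0.020). By time in liver, single calls were gained for Smox without fasted ZT0 replicate 5, for Sat1 without fasted ZT0 replicate 1 or ZT12 replicates 2 or 5, and for Odc1 without fasted ZT4 replicate 1 or fed ZT4 replicate 4. The ZT8 call in muscle was lost for Paox without fasted replicate 4 or fed replicate 2, and for Sms without fasted replicates 3 or 4 or any fed one.

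Whether liver and muscle libraries of the same replicate number came from the same mouse is not stated in the labels. Their deviations correlated over 0.1 in 7 of 19 same-numbered pairs, with a median r of 0.062. Such weak correlations cannot exclude shared animals, and the main models of tissue differences held no term for them. The deviations of same-numbered fed and fasted libraries correlated over 0.1 in 4 of 11 pairs in liver and 4 of 12 in muscle. Fed and fasted libraries come from different mice, so these pairs cannot show whether animals were shared. With the replicate block, 3 genes had a fasted rhythm in muscle, Amd1 (adjusted p = 0.054) and Sat1 (adjusted p = 0.065) not passing. Sat1 in liver exons was then at -0.0030, and exonic minus intronic Srm in liver at -0.017.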

Other observations

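Transcription factors known to act on Odc1 were read beside it. In muscle Myc, an activator of Odc1, rose by 1.49 ± 0.11 (limma adjusted p = 3.0e-14) and its partner Max by 1.09 ± 0.050 (adjusted p = 7.3e-20). Mxi1, a Myc antagonist, was at -0.085 ± 0.037 (adjusted p = 0.036), where the median over all genes tested in muscle was -0.17. Its value under the other scalings is not given here. In liver Myc rose by 0.83 ± 0.30 (adjusted p = 0.014), and Max (0.059 ± 0.062) and Mxi1 (0.018 ± 0.051) did not pass. The part of these factors in the levels of Odc1 was not tested.

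Over the 12 group means of muscle, the genes whose log2 levels ran most like Odc1 were Foxo1 (Pearson r = 0.995), Rnf103 (0.993) and Sorbs3 (0.992), of 10797 genes compared. For Amd1 they were Atp1b2, Cdk19 and Sema4d, with r of 0.969 or more. In liver, of 10376 genes, Paox ran most like Dnajc22 (0.988), Depdc5 (0.987) and Lss (0.986), and Srm most like Ccdc137 (0.939), Atp6v1d (0.930) and Wdr12 (0.885). The 12 points share the fed and fasted split and the times, and these values are descriptions with no test.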
